A study of Mus musculus with 2 samples.

Results

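The genes described here make and handle the lipids of the squamous barrier: ceramide synthesis and processing enzymes, lipoxygenases, and genes of acylceramide formation and lipid transport. They were chosen by gene symbol from a fixed list of 41 genes, of which 40 were measured by a probe set carrying that symbol alone, out of 29456 such genes on the array. The steroid sulfatase gene Sts was not analysed here. RNA came from mouse forestomach squamous organoids grown in Matrigel and was hybridized to Affymetrix Mouse Gene ST arrays, with 1 library in each of 2 groups.

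The SOX2 KO culture derived from mice carrying 1 copy of the tamoxifen-inducible Cre under the Krt5 promoter, both Sox2 alleles deleted (Sox2Δ/Δ) and a ROSA26 tdTomato reporter. Deletion in this model is limited to cells that express Krt5 and their descendants. The other culture is labelled WT control, and control mice of the study were littermates that lacked Krt5CreER. Neither the ages of the mice nor the Sox2 alleles of the control are known here. Genotype, mouse, culture and array cannot be told apart, and neither can loss of Sox2 and the presence of Cre and tdTomato. With 1 library per group there is no error between replicates, and every difference below describes 2 libraries without a test. The comparison addressed which parts of the squamous program differ when SOX2, a transcription factor of foregut epithelium, is lost.

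Ceramides are built from serine and a fatty acid by serine palmitoyltransferase, reduced, joined to a further fatty acid by a ceramide synthase and desaturated. In keratinizing epithelium some ceramides carry an ultra-long fatty acid that is hydroxylated at its far end and esterified with linoleic acid. These acylceramides are glucosylated, loaded into lamellar granules, oxidized by lipoxygenases and attached to the cornified envelope, where they form the lipid layer that holds back water. In human skin, loss of function of many of these genes causes ichthyosis.

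Values are log2 probe set signals as deposited, and differences are SOX2 KO minus WT control. The median signal of all genes (3.3) served as a floor, and a gene was called past 2-fold if it reached the floor on at least 1 array and differed by 1 or more. The 95th percentile of 1127 olfactory receptor genes (3.84), which are taken as unexpressed here, stood in for background. Sox2 itself had a signal of 5.74 in WT control and 2.53 in SOX2 KO. The second value is below the receptor level, so Sox2 was at least 3.73-fold lower. The study describes the cultures as squamous organoids. All 10 squamous markers examined were above the receptor level, between 6.31 and 10.33 in both libraries. Of these markers 8 were lower and 2 higher in SOX2 KO, with a median difference of -0.28.

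Lower signals predominated among the barrier lipid genes in the SOX2 KO library. Of the 40 members, 31 were lower to any extent, 8 higher and 1 equal, whereas 48.5% of all genes were lower and 47.4% higher. The median difference over the 40 members was -0.18, beside 0.00 over all genes. The largest differences were those of Cyp4f39, Alox12b and Ugcg, which act on ultra-long fatty acids, on the linoleate of acylceramides and on ceramide itself. These 3 members passed 2-fold toward lower signal and 0 passed it toward higher. Of the 40 members 34 reached the floor. Over all genes that reached it, 0.795% passed 2-fold toward lower and 2.01% toward higher signal, and over those that reached the receptor level 1.13% and 2.81% did. At a threshold of 1.5-fold, 7 members were lower (Cyp4f39, Alox12b, Ugcg, Cers3, Dgat2, Abca12 and Elovl4) and 1 was higher (Fa2h, by its measured difference of 0.67, with a WT control value below the receptor level), where 4.43% of all genes above the floor were lower and 6.45% higher (5.38% and 8.15% at the receptor level). In a bulk culture, fewer cells that express a gene and less of its RNA per cell cannot be told apart.

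**Figure D1:**
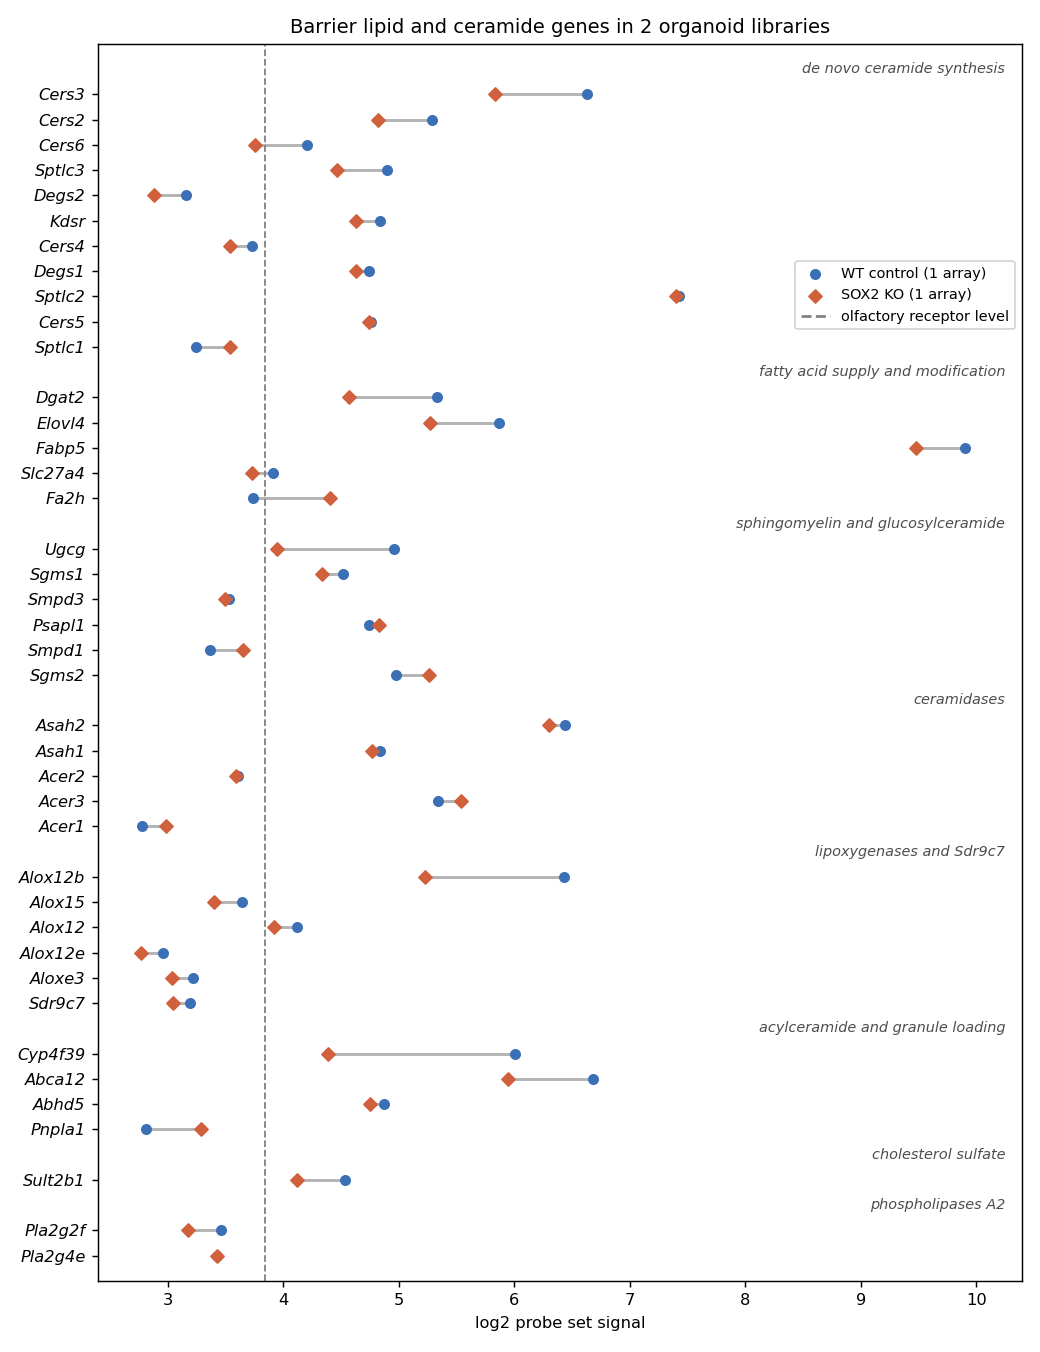
Log2 probe set signal (horizontal axis) of each of the 40 members in the WT control library (blue circles) and the SOX2 KO library (orange diamonds), 1 array each, ordered by role and within a role by difference; the dashed line is the olfactory receptor level of 3.84. The longest bars are those of Cyp4f39 (6.01 and 4.39), Alox12b (6.43 and 5.23) and Ugcg (4.96 and 3.95), with the SOX2 KO library on the left in each.

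Signal near background limits what part of the list can show. In both libraries 14 members stayed below the receptor level, where a decrease cannot be read. Among the 26 members that reached it on at least 1 array, 22 were lower and 4 higher, with a median of -0.21, while 48% of all genes at that level were lower and 49.7% higher. Of the 23 members at that level on both arrays, 20 were lower and 3 higher (Psapl1, Acer3 and Sgms2), beside 47.4% lower and 49.8% higher among all such genes. Lower signals thus outnumbered higher ones in the members that could be read, but these counts take differences of any size. The median of -0.21 is smaller in size than the SD of the difference over the receptor genes (0.26). Several lower members, such as Sptlc2 (-0.03) and Cers5 (-0.02), were close to level, as was Psapl1 (0.09) among the higher ones.

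The gene with the largest difference was Cyp4f39, a cytochrome P450 and the mouse counterpart of the human enzyme that hydroxylates ultra-long-chain fatty acids at their omega end. Its signal was 6.01 in WT control and 4.39 in SOX2 KO, a difference of -1.62 or 3.07-fold lower, and both values were above the receptor level. Of 15983 genes that reached the floor, 27 were as low or lower, Cyp4f39 included. The probe set (17335936) lies on the plus strand of chromosome 17 from 32452723 to 32493320 (mm10), within the RefSeq gene (32452697 to 32493320).

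Of the 3 other members of this role, 2 could be read and both were lower. Pnpla1, the transacylase that adds linoleate to the omega-hydroxyl group, gave 2.81 and 3.29 in WT control and SOX2 KO, both below the receptor level, so its difference of 0.48 cannot be read as a change in expression. Abhd5, a lipase cofactor that assists Pnpla1, was close to level at 4.87 and 4.75. Abca12, the transporter that loads glucosylceramides into lamellar granules, was 6.68 in WT control and 5.95 in SOX2 KO, 1.66-fold lower.

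Among the lipoxygenases the largest difference was that of Alox12b. This enzyme oxidizes the linoleate of acylceramides, the first step toward their attachment to the envelope. Alox12b had a signal of 6.43 in WT control and 5.23 in SOX2 KO, 2.30-fold lower, and 70 of the 15983 genes above the floor were as low or lower. Its partner Aloxe3, which converts the product, and Sdr9c7, the dehydrogenase of the step after it, were below the receptor level in both libraries (3.22 and 3.04, and 3.19 and 3.05). These partner enzymes thus offered no readable difference. Alox12, the platelet-type enzyme, was 4.12 and 3.92. Alox15, the leukocyte-type enzyme, and Alox12e, an epidermal enzyme of the mouse, stayed below the receptor level at 3.64 and 3.40 and at 2.96 and 2.77. All 6 members of this group were lower to some extent, 4 of them below the receptor level in both libraries.

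Genes next to the 3 members past 2-fold did not pass 2-fold, but most were near background. Alox12b (chromosome 11, 69156989 to 69169792, plus strand, mm10) lies between Aloxe3 and Alox8, and Alox8, the mouse enzyme of the same cluster, had a signal of 3.13 in WT control and 3.15 in SOX2 KO. Cyp4f39 lies at one end of a cluster of Cyp4f genes on chromosome 17. Of the 7 other measured genes of that cluster, 2 reached the receptor level, Cyp4f17 (difference -0.16) and Cyp4f13 (0.64). None of the 7 differed by 2-fold or more, with differences from -0.27 to 0.94. Both ends of that range are genes below the receptor level in both libraries, Cyp4f40 and Cyp4f37. The nearest of the 7, Cyp4f17, was 3.99 and 3.83, and Pglyrp2 on the other side of Cyp4f39 was 3.32 and 3.33. Gng10 and Susd1, genes that flank Ugcg at some distance, were 5.68 and 5.58, and 3.81 in both. The 40 members lie on 15 chromosomes.

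**Figure D2:**
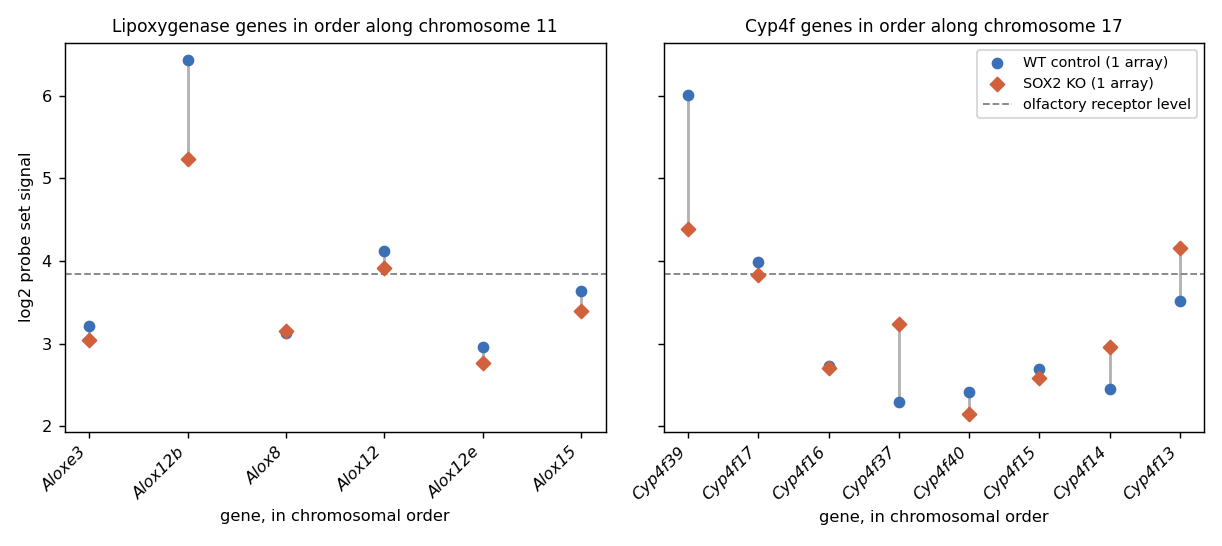
Log2 probe set signal (vertical axis) of lipoxygenase genes of chromosome 11 and Cyp4f genes of chromosome 17, in chromosomal order and not to scale, in the WT control (blue circles) and SOX2 KO (orange diamonds) libraries, 1 array each; the dashed line is the olfactory receptor level of 3.84. Alox12b and Cyp4f39 show the widest gaps, -1.20 and -1.62, and most of their neighbours lie below the line.

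Ugcg, the glucosyltransferase that makes glucosylceramide, was the last of the members past 2-fold. It had a signal of 4.96 in WT control and 3.95 in SOX2 KO, 2.01-fold lower, and 120 genes above the floor were as low or lower. The difference of -1.01 lies close to the threshold and stayed at or past it under the 3 alternative scalings, with a lowest value of -1.04. The probe set (17414434) lies on the plus strand of chromosome 4 from 59189257 to 59222833 (mm10).

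The other branch at ceramide, sphingomyelin, showed little difference. Sgms1 and Sgms2, the sphingomyelin synthases, differed in opposite directions (4.52 and 4.34 for Sgms1, 4.98 and 5.26 for Sgms2). The sphingomyelinases Smpd1 (3.37 and 3.65) and Smpd3 (3.53 and 3.50) were below the receptor level in both libraries. Psapl1, a relative of the sphingolipid activator precursor prosaposin, was 4.74 and 4.83. Of these 6 members, Ugcg included, 3 were lower and 3 higher.

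The 11 members of the de novo pathway differed by small amounts. Of these, 10 were lower in the SOX2 KO library, with a median of -0.21, and 0 passed 2-fold. Genes of sphingolipid synthesis and its regulation outside the member list were evenly divided, with 6 lower, 6 higher and a median of 0.05, and 3 of them were past 1.5-fold higher. Small subunits of serine palmitoyltransferase were higher, Sptssb by 0.77 and Sptssa, whose probe set also carries Mir1892, by 1.62. Among the 11 de novo members the only higher one was Sptlc1, a subunit of serine palmitoyltransferase. It was 3.25 in WT control and 3.54 in SOX2 KO, below the receptor level in both. The second subunit Sptlc2 was level (7.43 and 7.40), and the alternative subunit Sptlc3 was 4.90 in WT control and 4.47 in SOX2 KO. Kdsr, the reductase of the next step, was 4.84 and 4.63. Degs1, the main desaturase, was 4.74 and 4.63, and Degs2, which also hydroxylates, was 3.16 and 2.88, below the floor on both arrays.

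The ceramide synthases differed among themselves. Cers3, which joins ultra-long fatty acids and is needed for acylceramides in mouse epidermis, had the widest gap of the 5, with 6.63 in WT control and 5.83 in SOX2 KO (1.74-fold lower). Cers2, which prefers very long chains, was 5.29 and 4.82, and Cers6, which prefers shorter chains, 4.21 and 3.76. Cers4 was below the receptor level (3.73 and 3.54), and Cers5 was level at 4.76 and 4.74. All 5 synthases were thus lower to some extent, with differences from -0.80 to -0.02.

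Of 5 genes that supply and modify fatty acids, 4 were lower and 1 higher, with a median of -0.42. Elovl4, the elongase that makes the ultra-long chains used by Cers3, was 5.87 in WT control and 5.27 in SOX2 KO, 1.52-fold lower. Dgat2, which makes triglycerides, was 5.33 and 4.57, 1.69-fold lower. Fa2h, the fatty acid 2-hydroxylase, was the exception. Its signal was 3.74 in WT control, below the receptor level, and 4.41 in SOX2 KO, which was at least 1.48-fold higher. Its place among the members past 1.5-fold thus rests on a value below the receptor level. Slc27a4, a fatty acid transporter and acyl-CoA synthetase, was 3.91 and 3.73.

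Fabp5, the epidermal fatty acid binding protein, was measured by 3 probe sets. The 2 brightest had equal mean signals (9.90 and 9.48, and 9.91 and 9.47), and the third gave 7.22 and 6.87. All 3 were lower in the SOX2 KO library, with differences from -0.44 to -0.35. One of them is placed on chromosome 9 (57484390 to 57484590), away from the gene on chromosome 3 (10012548 to 10016610), so signal from a near-identical copy cannot be separated from that of Fabp5.

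Ceramidases, which release sphingosine, differed little. Asah1, the acid ceramidase, was 4.84 and 4.77, and Asah2, the neutral ceramidase, was 6.44 and 6.30. Acer3 was 5.34 and 5.54, while Acer1, the alkaline ceramidase of differentiated epidermis, and Acer2 were below the receptor level in both libraries (2.78 and 2.99, and 3.61 and 3.59). Of the 5 genes 3 were lower and 2 higher, and the differences ran from -0.14 to 0.21. Sult2b1, which makes cholesterol sulfate, was 4.54 in WT control and 4.12 in SOX2 KO. The epidermal phospholipases Pla2g2f (3.46 and 3.18) and Pla2g4e (3.43 in both) were below the receptor level.

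**Figure D3:**
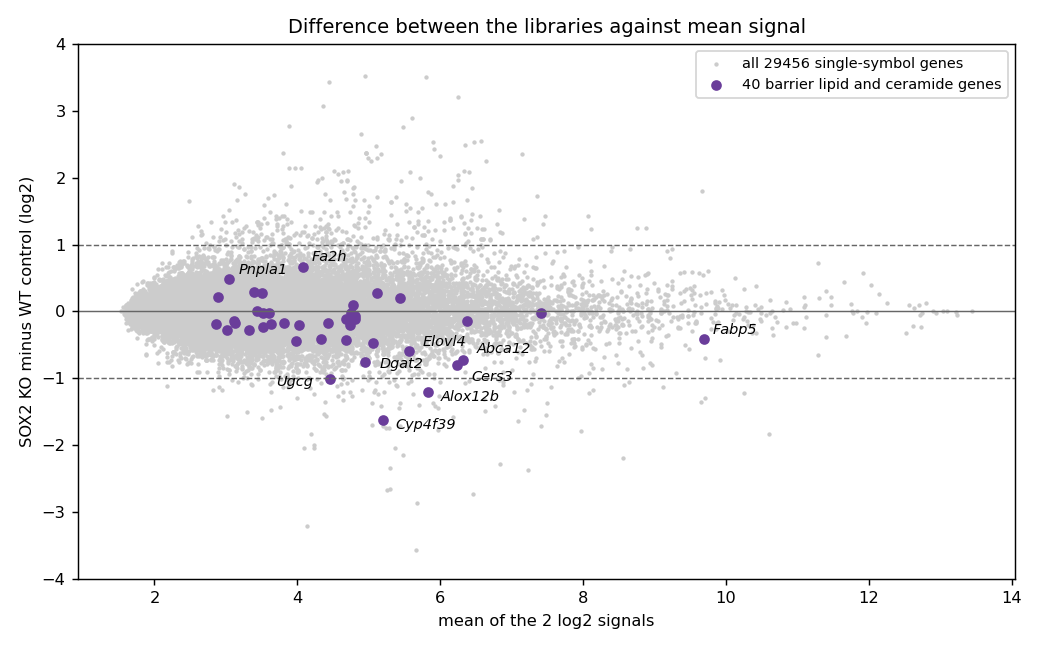
Difference between the SOX2 KO and WT control libraries (vertical axis, log2) against the mean of both log2 signals (horizontal axis) for all 29456 single-symbol genes (grey) and the 40 members (purple); dashed lines mark 2-fold. Cyp4f39, Alox12b and Ugcg lie at or below the lower line, and the other members lie between the dashed lines.

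Promoter sequence was examined because most members differed in the same direction. RefSeq promoter windows (250 bases before to 50 after a gene start, GRCm38.p6) were present for 33 of the 40 members, 44 windows in all. Each was searched on both strands for AACAANG (a SOX core), AACCNGTT (grainyhead-like), GGGNGTGG (KLF) and TGANTCA (AP-1). The SOX pattern was found in 2 of the 44 windows (4.55%, against 14.1% of all 32851 windows). The grainyhead-like pattern was found in 1 (2.27% against 2.09%). The KLF pattern was found in 14 (31.8% against 17.6%) and the AP-1 pattern in 7 (15.9% against 7.81%). Several windows of 1 gene were counted separately, and they can overlap or share bases. Counted by gene, 2 of the 33 members held a SOX match, 1 a grainyhead-like, 12 a KLF and 6 an AP-1 match. The share of all genes counted this way was not computed, so these counts by gene have no background to be read against. The median GC content was 60.0% in the member windows and 52.7% in all windows. The KLF pattern is rich in G and the SOX pattern in A. The part of base content in the shares of windows with a match was not tested. A match is not evidence of binding, and the lack of a match is not evidence against it. The study mapped SOX2 binding in forestomach squamous organoids by CUT&RUN, and those data were not used here.

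The windows below are those of the 3 members past 2-fold and of the 2 members with a match to the SOX pattern. Each is given 5′ to 3′ on the strand of the gene, with every match to one of the 4 patterns in capitals. The Cyp4f39 and Alox12b windows each hold 1 KLF match, and the Ugcg window (81.3% GC) holds none. Sptlc3 (AACAATG) and Alox12e (AACAAGG) hold 1 match to the SOX pattern each, with different bases at N. The Alox12e difference (-0.19) was read below the receptor level.
Cyp4f39, chr17:32452473-32452772, plus strand: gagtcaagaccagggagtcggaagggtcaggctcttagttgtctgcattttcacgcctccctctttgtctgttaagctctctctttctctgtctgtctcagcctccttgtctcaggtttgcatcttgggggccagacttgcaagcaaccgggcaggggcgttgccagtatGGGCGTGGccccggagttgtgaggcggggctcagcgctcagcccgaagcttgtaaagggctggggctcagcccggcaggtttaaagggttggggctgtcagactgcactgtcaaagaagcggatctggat
Alox12b, chr11:69156822-69157121, plus strand: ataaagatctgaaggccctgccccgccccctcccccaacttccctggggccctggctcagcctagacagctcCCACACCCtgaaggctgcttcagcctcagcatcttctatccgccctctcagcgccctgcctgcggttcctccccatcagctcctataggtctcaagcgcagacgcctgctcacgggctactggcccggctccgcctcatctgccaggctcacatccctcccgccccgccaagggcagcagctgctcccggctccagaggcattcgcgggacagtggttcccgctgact
Ugcg, chr4:59189300-59189599, plus strand: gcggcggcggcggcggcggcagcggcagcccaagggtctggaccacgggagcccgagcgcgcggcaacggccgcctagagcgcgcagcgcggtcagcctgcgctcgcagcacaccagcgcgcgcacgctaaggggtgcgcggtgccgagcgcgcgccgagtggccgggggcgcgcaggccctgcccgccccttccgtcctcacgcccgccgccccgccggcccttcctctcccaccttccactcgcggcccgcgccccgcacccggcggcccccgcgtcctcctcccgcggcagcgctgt
Sptlc3, chr2:139493663-139493962, plus strand: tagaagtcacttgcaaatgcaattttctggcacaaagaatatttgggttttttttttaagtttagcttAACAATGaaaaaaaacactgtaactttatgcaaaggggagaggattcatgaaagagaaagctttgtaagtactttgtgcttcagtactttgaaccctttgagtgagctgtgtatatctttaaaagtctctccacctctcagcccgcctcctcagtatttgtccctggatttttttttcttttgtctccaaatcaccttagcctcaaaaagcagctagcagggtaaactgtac
Alox12e, chr11:70322481-70322780, minus strand: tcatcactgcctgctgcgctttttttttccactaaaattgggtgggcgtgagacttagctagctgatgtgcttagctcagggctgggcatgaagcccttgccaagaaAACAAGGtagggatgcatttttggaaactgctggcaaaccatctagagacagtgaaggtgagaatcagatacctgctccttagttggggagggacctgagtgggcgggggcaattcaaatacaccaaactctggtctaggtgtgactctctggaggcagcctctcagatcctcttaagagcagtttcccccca

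Other genes of sphingolipid and epidermal lipid metabolism were divided evenly as a list, but not within each group. Of 78 such genes measured by a probe set of their own, 37 were lower, 36 higher and 5 equal, with a median of 0.00. The receptor level was reached by 40 of these on at least 1 array, with 22 lower, 18 higher and a median of -0.05. The 17 genes of sphingolipid breakdown and sphingosine 1-phosphate leaned lower (11 lower, 6 higher). At the receptor level 8 of them were lower and 2 higher, with a median of -0.16. The 12 genes of fatty acid elongation leaned higher (4 lower, 8 higher), with 3 lower and 5 higher at that level. Past 2-fold there were 2 higher and 0 lower among the 78 genes, beside the 2.01% and 0.795% given above. Elovl6, which elongates palmitate to stearate, was 4.63 in WT control and 7.16 in SOX2 KO (5.78-fold higher). Elovl6 thus differed in the opposite direction to Elovl4. Pla2g1b, a secreted phospholipase, was 3.75 and 5.18, at least 2.53-fold higher.

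At 1.5-fold, 5 of the 78 genes were lower and 8 higher, of 58 that reached the floor, beside the 4.43% and 6.45% of all genes given above. Fads3, a member of the fatty acid desaturase family, had the lowest difference at 4.21 in WT control and 3.30 in SOX2 KO, at least 1.29-fold lower. Spns2, the exporter of sphingosine 1-phosphate, was 6.19 and 5.29, and Lipk, an epidermal acid lipase, was 8.04 and 7.23. Nipal4, a membrane protein also linked to human ichthyosis, was 5.14 and 4.46. Sphk1, a sphingosine kinase, was 3.47 and 2.79, below the receptor level in both.

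Of the 8 genes past 1.5-fold in the other direction, 6 remain beside Elovl6 and Pla2g1b. Sptssb was 4.68 and 5.45, the fatty acid desaturase gene Scd1 was 3.97 and 4.74, and the ceramide transfer protein gene Col4a3bp (Cert1) was 4.75 and 5.40. Cyp4f13 (3.52 and 4.16) and B4galt6, a lactosylceramide synthase (3.28 and 3.89), were above the receptor level in SOX2 KO alone. Lipn, a further epidermal lipase, was 2.95 and 3.55, below it in both libraries. Among the 37 other epidermal lipid genes, Lipk, Nipal4 and Lipn included, 16 were lower and 16 higher, with a median of 0.00.

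**Figure D4:**
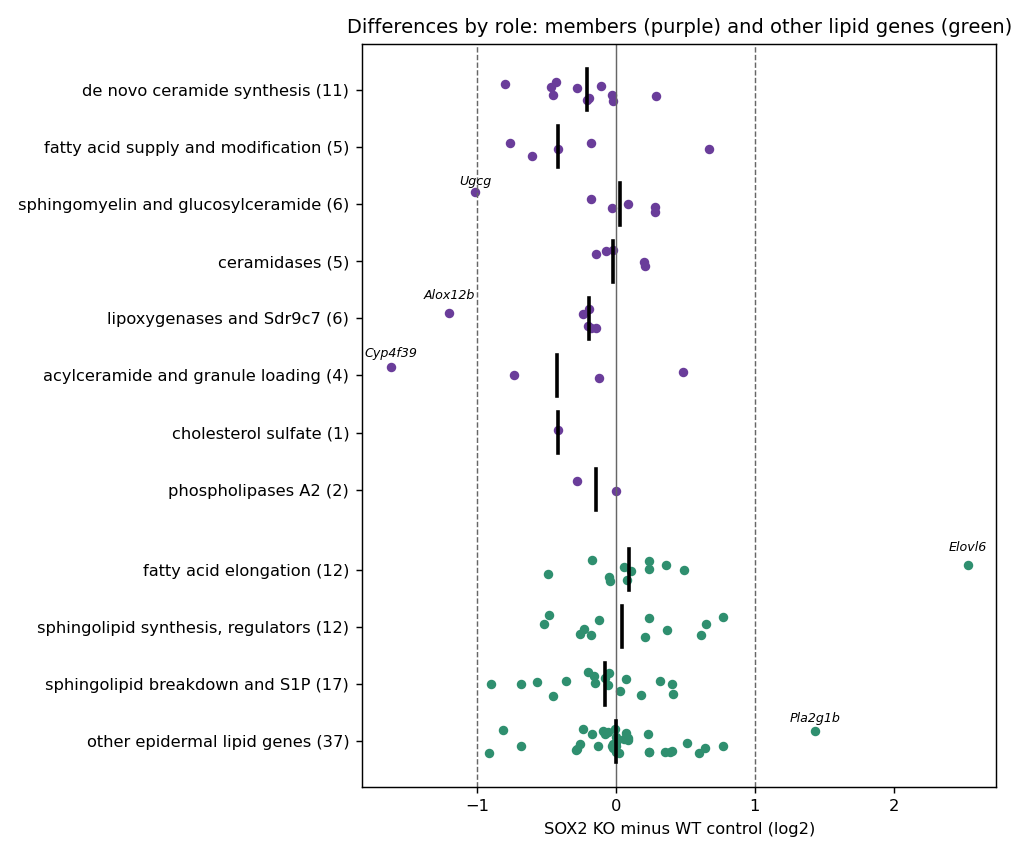
Difference between the SOX2 KO and WT control libraries (horizontal axis, log2) for the members by role (purple) and for other lipid genes (green); each point is a gene, spread vertically for visibility, the black bar is the median, the number of genes is in parentheses and dashed lines mark 2-fold. The 3 members past 2-fold lie in 3 different roles, and Elovl6 and Pla2g1b lie past 2-fold on the other side.

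Markers of squamous cells and of other cell types also differed between the libraries. Among the 10 squamous markers, 2 passed 2-fold toward lower signal, Krt13 (10.33 and 8.97) and Krt6a (8.69 and 7.47), and Krt4 was 8.46 and 7.49. Both Krt13 and Krt4 are keratins of differentiated internal squamous epithelium. Their differences were in the direction of most barrier lipid genes. Of the basal markers, Krt5 was slightly lower (8.86 and 8.71) and Krt14 was level (8.16 and 8.19).

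Markers of cornified epidermis went both ways. Of 18, 11 were higher and 7 lower in SOX2 KO. Past 2-fold 8 were higher, among them Krt10 (4.65 and 7.86), Krt1 (4.10 and 6.86) and Lce1c (3.87 and 6.34), and 1 was lower, Krtdap (9.13 and 8.03). Past 1.5-fold 5 were lower, which adds Tgm1 (7.33 and 6.43), Dmkn (8.56 and 7.72), Cdsn (4.89 and 4.10) and Dsg1a (4.53 and 3.80). The barrier lipid genes thus differed in the direction of some epidermal genes and opposite to others.

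Smooth muscle markers were higher in 7 of 8 cases, 3 of them past 2-fold, with signals from 3.10 to 4.34 in WT control and from 3.58 to 7.05 in SOX2 KO. Of 8 fibroblast markers 4 were higher, and Dcn alone passed 2-fold (2.83 and 5.90). All 12 gastric columnar markers were higher to some extent, by 0.01 to 1.14 with a median of 0.2. Of these, 6 were below the receptor level in both libraries. Their signals ran from 2.47 to 5.14 in WT control and from 2.76 to 5.39 in SOX2 KO for all 12. Only 1, Pgc, passed 2-fold (3.39 and 4.53). Sebocytes make related lipids, and 9 of 10 sebocyte markers were below the receptor level in both libraries. So were 9 of 11 macrophage and eosinophil markers. The other 2 were Cd68, at 7.18 and 7.39, and Lyz2, at 2.80 and 4.54. Of 5 platelet markers 3 were below that level, and Ppbp was 6.24 and 7.43. Of 8 adipocyte markers 5 were below it and 0 passed 2-fold. The part of these cell types in the differences of the lipid genes was not tested.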

How the data were processed

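RNA from 1 WT control and 1 SOX2 KO organoid culture was measured on 1 array each, and groups were taken from the genotype labels. The values were made by the authors with Transcriptome Analysis Console (version and summarization not given in the sources used here). They deposited log2 signals per probe set, to 2 decimals, annotated on mm10. A fold change, p-value and FDR p-value deposited by the authors compare 1 array with 1 array and were not used. The series value table differed from the workbook in 0 of 34472 probe sets.

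Of the probe sets 29971 carried 1 gene symbol, which gave 29456 genes. The probe set of highest mean signal stood for a gene, with ties going to the lower identifier. The floor was the median signal of all genes (3.3), reached by 15983 genes on at least 1 array, and 10607 reached the receptor level (3.84). Where the dimmer library lay below that level, that level took its place in the fold, written as a lower bound. The SD of the difference over the receptor genes was 0.26. Precision is limited by the number of arrays.

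With 1 library per group no test was run. The members and all gene lists were chosen with earlier results of these data known. Every member is described. Other lipid genes were named if past 2-fold, up to the 4 largest differences, and up to 3 markers per list by the size of their difference. Further lipid genes and markers past 1.5-fold, Krt5, Krt14, Cd68, the neighbours and the Cyp4f genes were added after their values were seen. Alternatives were centring, quantile and loess scaling (span 0.3), the series value table, other floors, the mean of probe sets, and thresholds of 1.5-fold and 3-fold. Counting was tested on simulated data. Python 3.11.15, pandas 2.3.3, numpy 2.4.6 and statsmodels 0.14.6 were used. Promoter sequences are from RefSeq.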

Additional observations from a re-analysis of the deposited data

Results flagged for a closer look

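Some lipid genes were measured only by a probe set that also carries another gene symbol and therefore took no part in the counts. Of 4 such genes, 2 passed 2-fold toward higher signal in SOX2 KO, above background in both libraries. Sptssa, a small subunit of serine palmitoyltransferase whose probe set also covers Mir1892, was 5.98 in WT control and 7.60 in SOX2 KO, a difference of 1.62 (3.07-fold). Scd2, a fatty acid desaturase whose probe set also covers Mir5114, was 6.58 and 7.67, a difference of 1.09 (2.13-fold). Sptssb, the alternative small subunit, differed by 0.77 in the same direction, while the large subunits Sptlc1, Sptlc2 and Sptlc3 differed by 0.29, -0.03 and -0.43.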

How the results depend on the processing

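No paired analysis was possible because neither group held more than 1 library, which also prevents leaving one out. The count of members at least 2-fold lower was 3 under each scaling, floor, table and probe set rule tried, and the count past 2-fold in the other direction was 0. At 1.5-fold these counts were 7 lower and 1 higher, and at 3-fold 1 was lower, as the threshold itself requires. The median difference of the members ran from -0.21 to -0.17, and 30 or 31 of the 40 members were lower under the 3 scalings. The identical series table tests nothing, and a floor cannot move a single gene. No single member moved by more than the receptor SD of 0.26. The median of all genes was -0.02 after quantile scaling. Members below the receptor level of 3.84 on both arrays, 14 in all, cannot show a decrease.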
